A study of Mus musculus with 2 samples.

Results

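This report concerns the shortest chromatin loops in mouse embryonic stem cells: 202 loops on chromosomes 1 to 19 whose anchor midpoints lay less than 100 kb apart. They were 4.16% of the 4858 autosomal loops, in a list of 4982 loops over all chromosomes. A loop joins a pair of intervals, its anchors, between which the caller used by the authors saw a local peak of contacts. The members were chosen by position only, and none of their scores was used. Contacts were measured by Micro-C, in which chromatin fixed with disuccinimidyl glutarate and formaldehyde is cut with micrococcal nuclease before ligation. Both samples were V6.5 cells, a male embryonic stem cell line, grown on gelatin, given 50 nM of the siGLO transfection control (siControl) with DharmaFECT1 and collected 48 hours later. All values therefore come from cells that had been transfected, from 1 line. The 2 samples share 1 deposited list with no value per sample, so no difference below could be set against the spread between samples, and no test was made. Read depth is unknown. Intervals cover counting error over the loops of this list only, and longer loops beside the short ones are a description.

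Cohesin, a ring-shaped complex, draws chromatin into loops and is held up at sites bound by the zinc finger protein CTCF, so that loops often end at CTCF sites that face each other. Short loops can also join promoters to enhancers or to other promoters. In embryonic stem cells, small loops are known around genes of cell identity and of development, where they can set a gene and its regulatory elements apart from the neighbours.

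The short loops lay in gene-dense surroundings, with a median of 16 protein-coding genes in the 500 kb to each side of the loop midpoint, against 7 for longer autosomal loops. At or inside them were 288 protein-coding genes, 1.39% of all. Genes of pluripotency and development, picked by lists, were among them. These included Prdm14, Lefty1 and Lefty2, Fgf3 and Fgf4, Id3, Gata5, Snai1, Olig1 and Olig2, Dlx1 and Dlx2, and part of the Hoxd cluster. The share was 9.26% of 54 pluripotency genes and 7.07% of 99 developmental transcription factors. The lists were written with earlier results of these data known. Contact maps are read in square pixels, whose side sets the width of an anchor. At 5 kb pixels the median number of genes near was 17 for short loops and 10 for all longer ones. It was 15 for loops of 100 to under 150 kb, so loops just over the limit had gene-dense surroundings too. With longer loops weighted to the same local gene density, a gene end lay at an anchor of 33.8% of short loops and 31.8% of longer loops of 5 kb pixels, and of 57.1% and 42.2% at 10 kb pixels.

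Sequences from RefSeq (GRCm38.p6, the assembly that mm10 names) are given for promoters at anchors and for microRNAs within loops. Of 108 protein-coding genes with an end at an anchor, 89 had an entry in the promoter table. At the anchors lay 53 tabulated promoters of 50 genes, each running from 250 bases before the start of transcription to 50 bases after it. The first are those joined by the loop of 95 kb from Metap1d (chr2:71453088-71453387, plus strand), which encodes a mitochondrial methionine aminopeptidase, to Dlx2 (chr2:71546705-71547004, minus strand), a homeobox gene of the forebrain. Both genes are transcribed toward the inside of this loop. Neither sequence holds TATAAA, the motif searched for, so no base is in capitals.
Metap1d: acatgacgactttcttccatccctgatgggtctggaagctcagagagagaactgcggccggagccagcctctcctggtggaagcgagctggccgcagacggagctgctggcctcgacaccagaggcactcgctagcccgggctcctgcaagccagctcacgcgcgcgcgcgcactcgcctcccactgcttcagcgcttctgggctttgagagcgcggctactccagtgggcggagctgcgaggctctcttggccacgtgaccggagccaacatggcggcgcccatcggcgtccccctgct
Dlx2: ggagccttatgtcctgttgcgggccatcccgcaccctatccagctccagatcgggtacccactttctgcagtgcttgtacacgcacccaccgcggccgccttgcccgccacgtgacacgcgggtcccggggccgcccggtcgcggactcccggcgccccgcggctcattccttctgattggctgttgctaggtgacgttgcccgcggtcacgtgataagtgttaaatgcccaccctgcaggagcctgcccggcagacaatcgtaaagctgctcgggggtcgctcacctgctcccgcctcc

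The next promoters are 3 of the 7 histone promoters at opposite anchors of the loop of 70 kb in the histone cluster of chromosome 13. H3c10, a histone H3 gene (chr13:21717378-21717677, plus strand), lies at the upstream anchor. H1f5, a linker histone gene (chr13:21780576-21780875, minus strand), and H2ac22, a histone H2A gene (chr13:21787199-21787498, minus strand), lie at the downstream anchor. Each holds TATAAA, in capitals, at position -31, -28 and -33 relative to the start, in that order. These 3 were chosen after the search because the match lies where a TATA box usually does, and all are transcribed into the loop. Of the other 4, H3c11 holds TATAAA at -147, and H2bc13 and H2ac13 do not hold it. H2bc22 holds it at -212 on the opposite strand only, in the same bases as the match of H2ac22. H2bc13 and H2bc22 are transcribed away from the loop.
H3c10: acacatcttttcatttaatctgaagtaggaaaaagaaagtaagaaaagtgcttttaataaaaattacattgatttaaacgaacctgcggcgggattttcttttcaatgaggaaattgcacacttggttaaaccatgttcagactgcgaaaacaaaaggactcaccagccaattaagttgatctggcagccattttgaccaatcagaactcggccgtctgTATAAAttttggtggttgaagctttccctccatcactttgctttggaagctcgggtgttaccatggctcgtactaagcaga
H1f5: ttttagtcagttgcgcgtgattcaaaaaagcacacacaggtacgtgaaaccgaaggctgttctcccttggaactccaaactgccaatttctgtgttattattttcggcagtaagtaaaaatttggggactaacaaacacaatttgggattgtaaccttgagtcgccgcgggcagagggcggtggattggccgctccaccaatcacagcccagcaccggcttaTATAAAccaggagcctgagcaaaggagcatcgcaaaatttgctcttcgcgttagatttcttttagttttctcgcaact
H2ac22: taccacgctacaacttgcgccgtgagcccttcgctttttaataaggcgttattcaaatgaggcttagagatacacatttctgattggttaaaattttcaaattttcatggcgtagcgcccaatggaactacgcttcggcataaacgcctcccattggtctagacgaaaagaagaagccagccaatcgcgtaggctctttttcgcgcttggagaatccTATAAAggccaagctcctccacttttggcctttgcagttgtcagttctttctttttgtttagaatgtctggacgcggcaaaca

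TATAAA was searched for on both strands and was found in 8 of the 53 promoters (15.1%), against 12.7% of all 20085 promoters of autosomal protein-coding genes. The matches of H2ac22 and H2bc22 are the same site, counted for each gene, and those of H3c10, H1f5 and H3c11 lie at the same histone loop. The median promoter at these anchors held 16 CpG dinucleotides (quartiles 8 and 22), against 14 (4 and 25) over all promoters. A window of this length covers a small piece of an anchor, and a missing match says only that these letters are not in it.

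MicroRNA hairpins lay inside or at the anchors of 12 short loops, 13 hairpins in all of 919 tabulated on autosomes. The mature strands of 3 of them are given, with the seed (bases 2 to 8) in capitals, because of their known roles in development. miR-10b lies in the Hoxd cluster, inside the loop of 50 kb described below. let-7c and let-7b, which accumulate as cells differentiate, lie at the downstream anchor (chr15:85705001-85710000) of a loop of 95 kb with a peak score, the caller's own unitless score, of 7.07. They were picked after their loops were known. These let-7 strands share 1 seed, which differs from that of miR-10b. No protein-coding gene record touched the let-7 loop.
mmu-miR-10b-5p: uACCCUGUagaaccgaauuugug
mmu-let-7c-5p: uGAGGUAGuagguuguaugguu
mmu-let-7b-5p: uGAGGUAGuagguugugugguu

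Known regulators of the pluripotent state were among the genes in short loops. Of 54 matched genes of the pluripotency list, 4 lay whole between the anchors of a short loop and 1 had an end at an anchor, together 9.26%. Over all 20665 autosomal protein-coding genes, 0.871% lay whole inside, 0.523% had an end at an anchor and 1.39% did either. The lists here were written with earlier results of these data known, so their counts are no independent evidence. Prdm14, a transcription factor of the naive state and of germ cells (chr1:13113428-13127163), was the only protein-coding gene touched by its loop, which ran 80 kb from chr1:13050001-13055000 to chr1:13130001-13135000 and had a peak score of 5.28. Lefty1 and Lefty2, secreted inhibitors of Nodal signalling, lay in the same loop of 95 kb (chr1:180875001-180880000 to chr1:180970001-180975000, peak score 4.12). Fgf4, whose product drives exit from the naive state, lay with Fgf3, a growth factor gene of the inner ear, in a loop of 95 kb (chr7:144795001-144800000 to chr7:144890001-144895000, peak score 5.40). Id3, an inhibitor of basic helix-loop-helix factors, was at the downstream anchor (chr4:136145001-136150000) of a loop of 75 kb with a peak score of 4.35, and no other protein-coding gene record touched that loop.

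Among developmental transcription factors 7 of 99 matched genes were at or inside short loops (7.07%), and among Hox genes 5 of 39 (12.8%). Over all autosomal protein-coding genes it was 1.39%. Neighbouring genes share loops, as do Dlx1 and Dlx2, Olig1 and Olig2, and the Hoxd genes, so these counts rest on fewer loops than genes. Gata5, a zinc finger factor of endoderm and heart, was the only whole protein-coding gene in a loop of 70 kb (peak score 5.07). Snai1, a repressor that acts when epithelial cells become migratory, lay in a loop of 70 kb (4.54). Olig1 and Olig2, basic helix-loop-helix factors of motor neurons and oligodendrocytes, lay in a loop of 95 kb (3.74). The Gata5 loop also had an end of Rbbp8nl at its upstream anchor. No further protein-coding record touched the loops of Snai1 and of Olig1 and Olig2, and each held 1 long non-coding RNA (lncRNA) gene. Dlx1 lay inside the loop of 95 kb that joined Metap1d to Dlx2, whose peak score was 5.79. Cdx1, a homeobox gene of posterior patterning, lay with Slc6a7, a proline transporter gene, and the predicted gene Gm52351 in a loop of 80 kb (3.79). In the Hoxd cluster, a loop of 50 kb (chr2:74685001-74690000 to chr2:74735001-74740000, peak score 3.23) ran from an anchor with an end of Hoxd11 and enclosed Hoxd9, Hoxd8 and Hoxd4. The records of Hoxd10 and Hoxd3 also touched it, running across its upstream and its downstream anchor, in that order. Hoxb13 was the only whole protein-coding gene in a loop of 90 kb (3.45).

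Of 24 signalling ligands, 8.33% were at or inside short loops: Fgf3 lay inside a loop and Ihh, a hedgehog ligand of growing cartilage, had an end at the upstream anchor (chr1:74945001-74950000) of a loop of 70 kb (peak score 4.32). Of 73 ribosomal protein genes 1.37% were there, beside 1.39% of all genes: Rpl14 lay inside a loop of 85 kb (5.22), with the ectonucleotidase gene Entpd3. No gene was at or inside a short loop among 28 cohesin and CTCF genes, 32 imprinted genes and 27 housekeeping genes, lists too short for 1.39% to come to 1 gene.

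**Figure D1:**
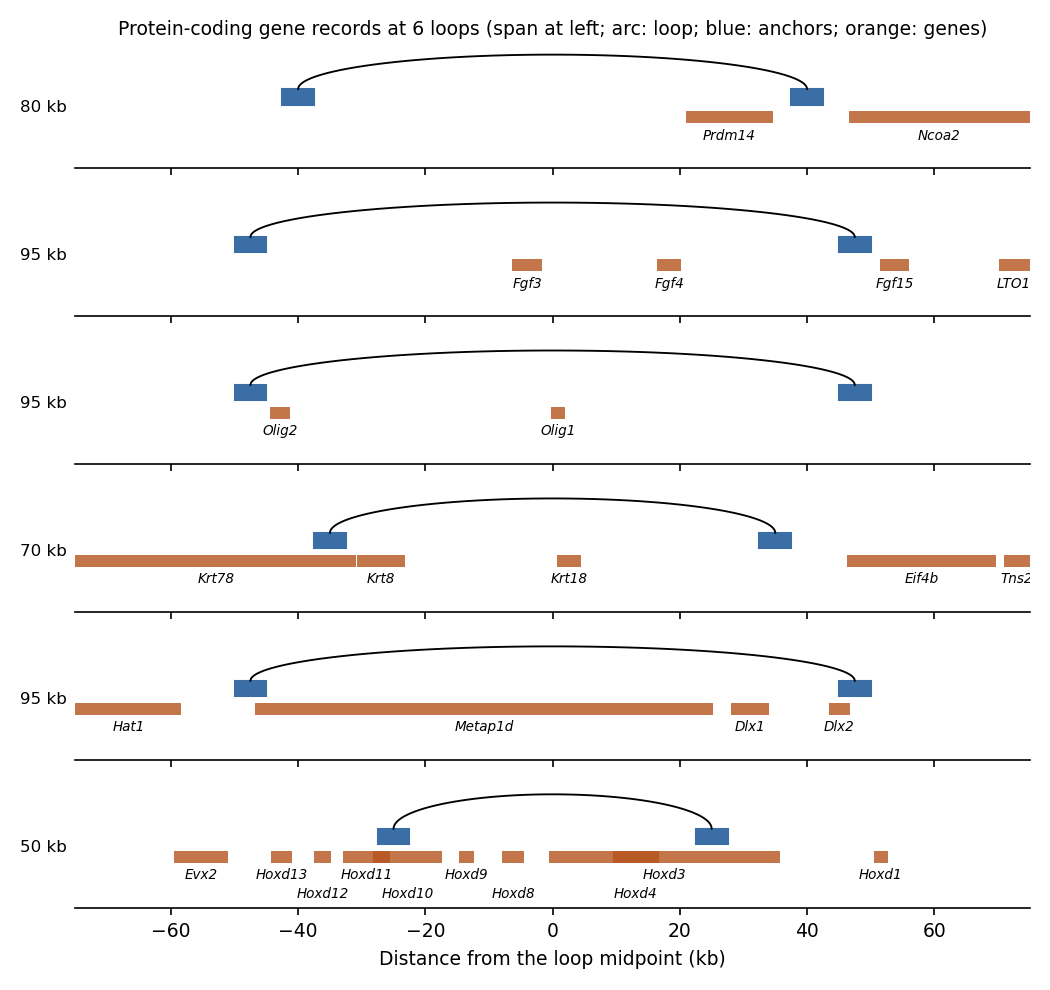
Protein-coding gene records (orange) at 6 short loops, drawn to scale around the loop midpoint (distance in kb on the horizontal axis), with the anchors in blue, the loop as an arc and its span at the left. From the top, the loops hold Prdm14, Fgf4, Olig2, Krt8, Dlx1 with Dlx2 at an anchor, and Hoxd9. The first of them touches no protein-coding record but Prdm14.

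Over all short loops, 118 of 202 enclosed at least 1 whole protein-coding gene (58.4%, Wilson 95% interval 51.5 to 65.0%), where 67.9% of all autosomal loops did. Here and below, a whole gene is a protein-coding record, counted only where it lay between the inner edges of the anchors. Of the loops, 84 enclosed no whole gene, 79 enclosed 1, 24 enclosed 2, 10 enclosed 3, and 5 enclosed 4 or more. Longer loops enclose more sequence, and their share was 68.3%. Per Mb between anchors the order turned: short loops held 12.3 whole genes per Mb and longer autosomal loops 4.67. Among 5 kb pixels the values were 12.5 in short loops and 5.53 in longer ones, with 8.91 in loops of 100 to under 200 kb. The lncRNA genes inside numbered 10.9 per Mb in short loops, 7.57 in longer loops and 8.54 in loops of 100 to under 200 kb at 5 kb pixels. They numbered, at 10 kb pixels, 6.19 per Mb in short loops and 5.37 in longer ones. Neither a protein-coding gene end at an anchor nor a whole gene inside was found for 56 short loops (27.7%, 22.0 to 34.3%), beside 22.5% of all autosomal loops.

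The loop with most whole genes inside lay on chromosome 10 (chr10:79835001-79840000 to chr10:79925001-79930000, 90 kb, peak score 4.47) and held 8. They were the splicing regulator gene Ptbp1, Plppr3, the neutrophil protease genes Prtn3 and Elane, the complement factor D gene Cfd, the Mediator subunit gene Med16, R3hdm4 and the kisspeptin receptor gene Kiss1r. An end of Arid3a, which encodes a DNA-binding factor, lay at its downstream anchor. A loop of 80 kb on chromosome 4 held 5 (peak score 5.92), among them Agrn, whose product organises the neuromuscular junction, and Isg15, an interferon-induced gene. The histone loop of 70 kb also held 5.

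A gene end is the first or last base of a protein-coding record, inside an anchor. At 1 or both anchors of 78 short loops there was such an end (38.6%, 32.2 to 45.5%), beside 33.2% of all autosomal loops and 33.0% (31.7 to 34.4%) of longer ones. Anchor width differs with pixel size, so the sizes were also taken apart. Of 160 short loops of 5 kb pixels, 54 had a gene end (33.8%, 26.9 to 41.4%), against 26.0% (23.5 to 28.6%) of 1105 longer loops of 5 kb pixels. Of 42 short loops of 10 kb pixels, 24 had one (57.1%, 42.2 to 70.9%), against 33.0% (31.3 to 34.7%) of 2915 longer ones. The intervals overlapped at 5 kb pixels and did not at 10 kb pixels. A lncRNA gene end lay at an anchor of 46 short loops (22.8%, 17.5 to 29.0%), near the 23.7% of all autosomal loops.

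Local gene density moved with the gene ends. Among 5 kb pixels with 20 or more protein-coding genes within 500 kb, 30 of 62 short loops had a gene end at an anchor (48.4%, 36.4 to 60.6%), against 41.5% (34.5 to 48.9%) of longer loops. With 10 to 19 genes near, the shares were 28.2% (19.4 to 39.03%) of 78 short loops and 27.2% (23.1 to 31.8%) of longer loops. With 0 to 9 genes near, they were 10% (2.79 to 30.1%) of 20 short loops and 19.9% (16.8 to 23.5%) of longer loops. The intervals overlapped in every band of 5 kb pixels. When the longer loops were weighted to the bands of the short ones, the share at 5 kb pixels was 33.8% in short loops and 31.8% in longer loops. At 10 kb pixels the same weighting gave 57.1% (42.2 to 70.9%) in short loops and 42.2% in longer ones. The weighted value lay at the lower limit of that interval. The bands of 20 or more, 10 to 19, and 0 to 9 genes held 11, 17 and 14 short loops of 10 kb pixels. In the sparsest band the 10 kb shares were 50% (26.8 to 73.2%) in short loops and 24.5% (22.6 to 26.5%) in longer loops, and in the densest 90.9% (62.3 to 98.4%) and 66.5% (60.8 to 71.8%). In the middle band they were 41.2% (21.6 to 63.99%) in short loops and 41.1% (37.7 to 44.6%) in longer loops. These intervals stood apart only in the sparsest band, with 14 short loops and by a narrow margin (limits of 26.8% and 26.5%). At 5 kb pixels the order in that band was the other way.

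**Figure D2:**
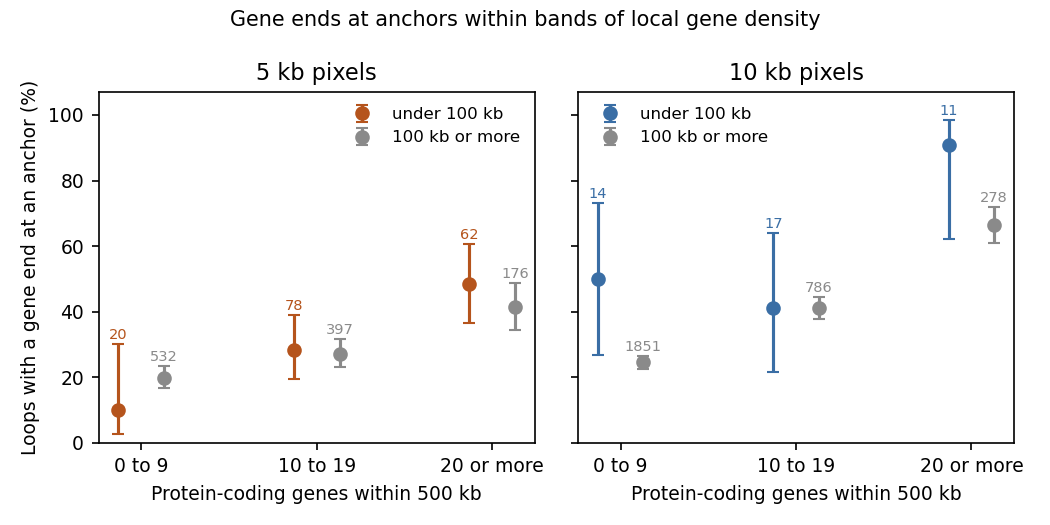
Percent of loops with a protein-coding gene end at an anchor (vertical axis) by count of nearby protein-coding genes, to 500 kb on each side (horizontal axis), for short loops (coloured) and longer loops (grey) of 5 kb pixels (left) and 10 kb pixels (right). Bars are Wilson 95% intervals and the numbers are loops. At 5 kb pixels the intervals of short and longer loops overlap in all 3 bands.

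Gene ends lay at both anchors of 13 short loops (6.44%, 3.80 to 10.7%), beside 5.41% of all autosomal loops. At 5 kb pixels the share was 5% (2.56 to 9.56%) in short loops and 2.26% (1.54 to 3.32%) in longer loops. In none of the 13 was it the same gene at both ends. The 12 of highest peak score ranged from 3.72 to 15.6. The histone loop (chr13:21710001-21720000 to chr13:21780001-21790000, peak score 6.08) joined H2bc13, H2ac13 and H3c10 to H1f5, H3c11, H2ac22 and H2bc22, and enclosed H2bc14, H4c11, H4c12, H2ac15 and H2bc15, all genes of the histones that package newly copied DNA. Its downstream anchor was shared with a loop of 35 kb, the only anchor shared among short loops. Histone genes exist as near-identical copies, and the treatment of reads that fit several copies is not stated.

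The other loops with gene ends at both anchors joined genes of varied function. On chromosome 10 a loop of 70 kb joined Fam174c and the ephrin gene Efna2 to Pwwp3a and Ndufs7, a subunit of respiratory complex I (peak score 5.64). On chromosome 11 a loop of 70 kb joined Nhp2, a protein of small nucleolar ribonucleoproteins, to 0610009B22Rik (5.02), and a loop of 85 kb joined the proteasome subunit gene Psmb6 to Mink1, a kinase gene, and Chrne, an acetylcholine receptor subunit gene (4.20). On chromosome 14 loops joined Ngdn to the thiamine triphosphatase gene Thtpa and Ap1g2 over 75 kb (5.44), and Cebpe, a factor of granulocytes, to the amino acid transporter gene Slc7a8 and Rnf212b over 70 kb (3.72). On chromosome 2 loops joined Phyh, a peroxisomal hydroxylase gene, to Ucma, a cartilage matrix gene, over 70 kb (3.95), and Olfml2a to Wdr38 over 65 kb (4.05). The remaining loops on chromosomes 5 and 7 joined the adaptor subunit gene Ap5z1 to Radil over 75 kb (4.58), and 1600014C10Rik to the ribonuclease P subunit gene Pop4 over 70 kb (4.22).

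Start sites, known for the genes in the promoter table, were counted apart from gene ends. An anchor can hold a start site but no end of the gene record, as with Nr1h3. A start site lay at 1 or both anchors of 36 short loops (17.8%, 13.2 to 23.7%), beside 16.8% of all autosomal loops. Shares in this paragraph keep loops on chromosomes without entries in the promoter table, which could not be counted. Without them this share was 18.2% of 198 short loops and 17.4% of longer loops. Start sites lay at both anchors of 8 short loops (3.96%, 2.02 to 7.62%), beside 2.04% of all autosomal loops. At 5 kb pixels there were 5 of 160 short loops (3.12%, 1.34 to 7.11%) and 7 of 1105 longer loops (0.633%, 0.307 to 1.30%). These intervals did not overlap, by a narrow margin. Of the 5 short loops, 1 runs from LOC108167320 to Ppp2r3d, whose promoters hold unknown bases, as given below. Among 5 kb pixel loops of 100 to under 200 kb the share was 0.798% (0.311 to 2.03%), whose interval overlaps that of the short loops. These shares were not weighted for local gene density. Of 52 entries, each a gene at an anchor of a short loop, 33 were transcribed into the loop and 19 away from it. These are entries of 50 genes, since H1f5 and H3c11, both transcribed into the loop, count for each histone loop that shares their anchor. Several entries come from that cluster, so the entries are not independent. The share into the loop was 63.5% (49.9 to 75.2%) in short loops and 52.7% (49.0 to 56.5%) in longer loops of 5 and 10 kb pixels, with overlapping intervals.

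Gene density near the short loops was described with the 160 loops of 5 kb pixels, to hold the pixel size fixed. Their median was 17 protein-coding genes within 500 kb to each side (quartiles 11.8 and 25, 95% order-statistic interval 14 to 19). Longer loops of 5 kb pixels had a median of 10 (6 and 16, interval 9 to 11). At 10 kb pixels the medians were 13.5 (interval 10 to 17) in short loops and 7 (7 to 7) in longer ones. Windows of 1 Mb laid end to end along the autosomes had a median of 6 (quartiles 2 and 12, 2419 windows), and 17.4% of them reached the median of 16 of all short loops. With genes that touch the loop itself left out, the medians were 15 in short loops and 8 in longer loops of 5 kb pixels. A longer loop loses more of the same window in that count. The count is therefore lowered more for longer loops and is no check of the difference. Long non-coding RNA genes differed less, with medians of 8 in short loops and 7 in longer ones.

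Median gene density did not step down at the limit of 100 kb. At 5 kb pixels the median was 18.5 genes for loops under 70 kb, 17.5 from 70 to under 85 kb, 16 from 85 to under 100 kb, 15 from 100 to under 150 kb, 11 from 150 to under 200 kb, 11 from 200 to under 300 kb and 7 for 300 kb or more. Just inside the limit, 33 loops of 5 kb pixels at 95 kb had a median of 17 genes near, and just outside it 28 loops at 100 kb had 20. At 10 kb pixels the medians were 13 from 70 to under 85 kb, 14 from 85 to under 100 kb, 11 from 100 to under 150 kb, 10 from 150 to under 200 kb, 9 from 200 to under 300 kb and 6 for 300 kb or more. There 13 loops at 90 kb had a median of 14 and 9 loops at 100 kb a median of 12.

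**Figure D3:**
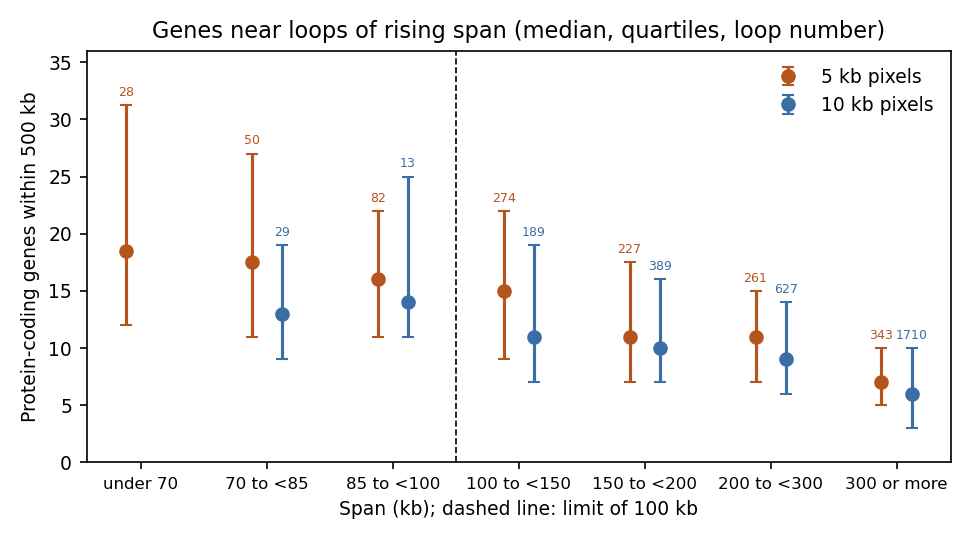
Protein-coding genes in the 500 kb on each side of the loop midpoint, as medians (vertical axis), by span in kb (horizontal axis), for loops of 5 kb and 10 kb pixels. Bars are quartiles, numbers are loops, and the dashed line is the limit of 100 kb. The medians at 5 kb pixels run from 18.5 at the shortest spans to 7 at 300 kb or more.

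Within chromosomes, the median number of genes near was higher for short loops than for longer loops of 5 kb pixels on 17 of the 18 chromosomes with short loops of this size. The exception was chromosome 6, with 8.5 for 4 short loops and 9 for longer ones. On all 11 chromosomes with at least 5 short loops of 5 kb pixels the short loops were higher. The gap was small on chromosome 2, with medians of 12 for 31 short loops and 11 for longer loops. It was wide on chromosome 10, with 23 and 8, and on chromosome 13, with 23 and 7. With genes that touch the loop left out, short loops were higher on 16 of the 18 chromosomes and on all 11. As said above, that count is lowered more for longer loops.

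**Figure D4:**
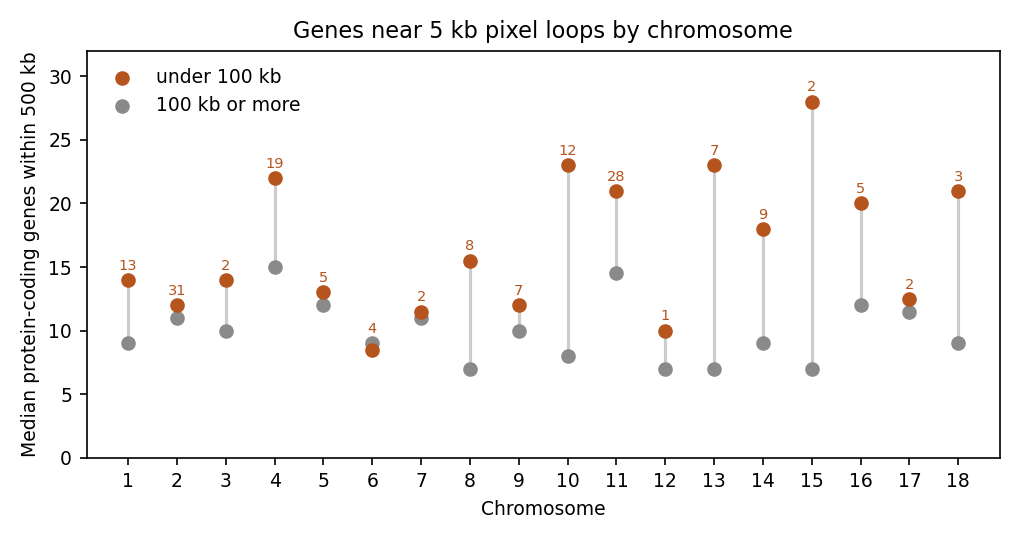
Protein-coding genes in the 500 kb on each side of the midpoint, as medians (vertical axis), for 5 kb pixel loops by chromosome (horizontal axis), short loops in orange and longer loops in grey. Numbers are short loops. The orange point is the higher on all chromosomes shown but chromosome 6.

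Short loops were mostly listed at the finest pixel size. Of the 202, 160 were of 5 kb pixels (79.2%, 73.1 to 84.2%), beside 26.0% of all autosomal loops, and 42 were of 10 kb pixels. No loop of 25 kb pixels was short. The shortest spans of any loops were 35 kb at 5 kb pixels (3 loops), 70 kb at 10 kb pixels (16 loops) and 175 kb at 25 kb pixels, which is 7 pixels in each case. Whether the caller set a shortest span is not stated. With shortest spans such as these, no loop of 25 kb pixels could be short, so the shares by pixel size cannot be told apart from such a setting. The median span was 80 kb (quartiles 70 and 90), and 90 kb, 70 kb and 95 kb were the commonest spans, with 35, 34 and 33 loops.

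**Figure D5:**
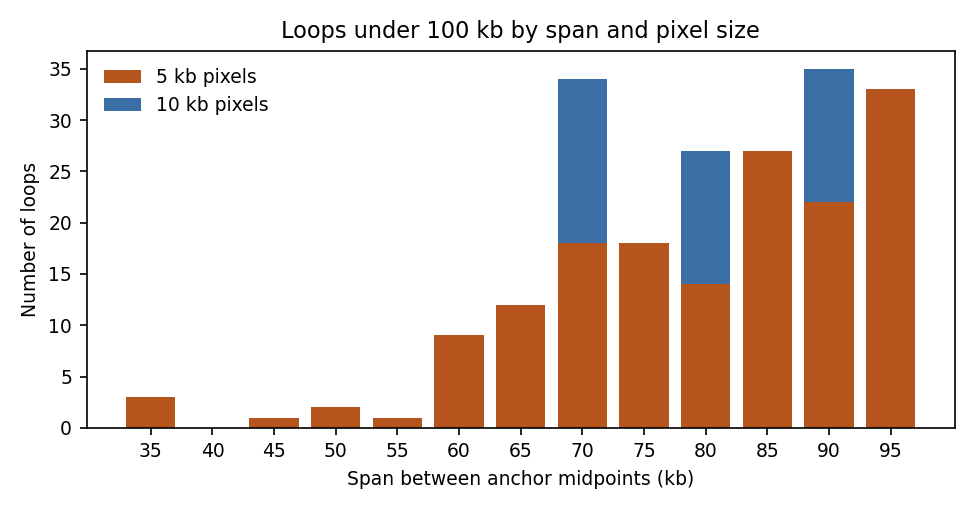
Number of short loops (vertical axis) by span between anchor midpoints in kb (horizontal axis), with 5 kb pixels in orange and 10 kb pixels in blue stacked above. Loops under 60 kb number 7, and none of 10 kb pixels lies below 70 kb.

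Chromosomes 2, 11 and 4 held 31, 30 and 22 short loops, together 41.1% of them, against 21.0% of all autosomal loops and 33.4% of those of 5 kb pixels. These chromosomes were picked after their counts were seen. Per Mb, short loops ranged from 0.0193 on chromosome 15 to 0.246 on chromosome 11. The share of 5 kb pixel loops that were short was 19.7% on chromosome 11 (28 of 142) and 20.9% on chromosome 4 (19 of 91). It was 3.39% on chromosome 3 (2 of 59) and 3.33% on chromosome 12 (1 of 30), shares that rest on very few short loops. Chromosome 19 had 3 short loops, all of 10 kb pixels, and none of its 5 loops of 5 kb pixels was short.

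Peak scores, which are the authors' values, were lower in short loops than in all longer loops of the same pixel size. The median was 4.29 (95% order-statistic interval 4.14 to 4.54) in short loops and 4.96 (4.87 to 5.07) in longer loops of 5 kb pixels. At 10 kb pixels it was 3.48 (3.24 to 3.81) in short loops and 3.99 (3.95 to 4.02) in longer ones. The value of the peak pixel had a median of 4.24 (4.13 to 4.48) in short loops and 5.01 (4.92 to 5.10) in longer loops of 5 kb pixels. At 10 kb pixels it was 7.02 (6.04 to 7.24) in short loops and 6.76 (6.68 to 6.82) in longer ones, with overlapping intervals. Against all longer loops, the score thus ran lower at both sizes and the pixel value only at 5 kb. Among longer loops of 5 kb pixels the median score rose with span, to 5.12 at 300 kb or more. Next to the limit it was 4.24 at 95 kb and 4.42 at 100 kb. At 10 kb pixels it was 3.66 from 70 to under 85 kb and 3.58 from 100 to under 150 kb. Loops of 10 kb pixels had 3.36 at 90 kb, 3.25 at 100 kb and 4.13 at 300 kb or more.

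Of the 8 short loops of highest peak score, 7 are described. Krt8 and Krt18, the paired keratins of simple epithelia, were the whole protein-coding genes in a loop of 70 kb (chr15:101990001-101995000 to chr15:102060001-102065000, peak score 9.71). Fcrlb, Fcrla, the predicted gene Gm39701 and Fcgr2b, which encodes an inhibitory antibody receptor, lay in a loop of 95 kb on chromosome 1 (7.86). Muc3a, a membrane mucin gene of the gut, lay in a loop of 85 kb on chromosome 5 with the predicted gene Gm40349 at an anchor (10.01). A loop of 95 kb on chromosome 8 (9.77) touched no protein-coding record but Cdh3, a cadherin gene, and held no end of it at its anchors.

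Another 3 of the 8 lay at predicted or uncharacterised genes. The highest score of any short loop, 15.6, belonged to a loop of 35 kb (chr9:124440001-124445000 to chr9:124475001-124480000) from LOC108167320 to Ppp2r3d, a gene of a phosphatase regulatory subunit. The promoter windows of both genes hold a run of 100 unknown bases, an assembly gap, and they share a run of 49 bases in inverse orientation. How gaps and near-identical copies bear on this score was not tested. On the same chromosome a loop of 50 kb with an end of 2010315B03Rik scored 8.55, and on chromosome 17 one of 90 kb with an end of Gm20939 scored 8.47. The other shortest loops were loops of 35 kb on chromosome 6 with an end of Gm21814 (5.19) and in the histone cluster (5.20), a loop of 45 kb on chromosome 13 that touched Nnt, a mitochondrial transhydrogenase gene, and Paip1, a translation factor gene, without holding an end of either (3.49), and the Hoxd loop of 50 kb.

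The surroundings of single loops ranged widely. The loop from Efna2 to Ndufs7 had 61 protein-coding genes within 500 kb, the loop around Ptbp1 and Elane 58, and a loop of 65 kb around the stress response gene Gadd45b 57, all on chromosome 10. Loops around Btn1a1 and Btn2a2, butyrophilin genes, on chromosome 13 and from the methionine sulfoxide reductase gene Msrb1 across Hs3st6 on chromosome 17 had 53 each. At the other end, loops on chromosome 1 (chr1:3020001-3030000 to chr1:3110001-3120000) and chromosome 5 (chr5:10710001-10720000 to chr5:10790001-10800000) had 1 gene near. The loop at Gm20939 had 2, a loop on chromosome 9 (chr9:3090001-3100000 to chr9:3180001-3190000) 3, and a loop of 95 kb that touched Creb3l2 on chromosome 6 had 4. Of these 5 sparse loops, 4 were of 10 kb pixels, and none enclosed a whole protein-coding gene.

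Nesting and shared anchors describe how short loops sit among other loops. Of the 202, 70 lay inside a longer loop (34.7%, 28.4 to 41.4%), beside 41.3% of all autosomal loops, and the smallest loop around them had a median span of 240 kb. At 5 kb pixels the shares were 30.6% (24.0 to 38.2%) in short loops and 49.3% (46.4 to 52.3%) in longer ones. An anchor was shared with another loop in 47 short loops (23.3%, 17.97 to 29.6%), beside 41.6% of all autosomal loops. At 5 kb pixels these shares were 22.5% (16.7 to 29.6%) in short loops, 31.1% (27.2 to 35.3%) in loops of 100 to under 200 kb, and 38.5% (35.6 to 41.4%) in all longer loops. At 10 kb pixels 50% (35.5 to 64.5%) of short loops and 40.3% (38.5 to 42.1%) of longer ones lay inside a longer loop, so the order there was the other way, with overlapping intervals. Anchors were shared by 26.2% (15.3 to 41.1%) of short loops and 42.4% (40.6 to 44.2%) of longer loops of 10 kb pixels. Both anchors were shared with other loops in 7 short loops (3.47%, 1.69 to 6.98%), beside 4.80% of all autosomal loops.

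Intragenic loops, with both anchors inside the record of 1 protein-coding gene, numbered 8 of the 202 (3.96%, Wilson 95% interval 2.02 to 7.62%), beside 3.03% of all autosomal loops. They were picked after their values were seen. They lay in Stat4, which encodes a transcription factor of cytokine signalling (95 kb, peak score 4.86), Nhsl1 (75 kb, 3.77), the ankyrin gene Ank3 (90 kb, 3.94), Rab11fip4 (65 kb, 3.59), Pitpnc1 (85 kb, 3.398), Ppp2r5c, a phosphatase regulatory subunit gene (90 kb, 2.81), Arhgap22 (80 kb, 3.24) and Pstpip2 (70 kb, 3.92). Of these, 6 had a peak score below the median of short loops of their own pixel size (4.29 at 5 kb and 3.48 at 10 kb), and those of Stat4 and Pstpip2 lay above it. A longer loop enclosed 6 of them.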

How the data were processed

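Both samples form 1 group, siControl, and share 1 loop list. Juicer 1.5.6 and build mm10 are named in the submitters' processing notes. Which caller, thresholds and pooling of samples were applied is not given in the sources used here. Deposited peak scores are scores of the authors' caller without a unit, and the deposited signal is the value of the peak pixel, with its normalization not stated. These meanings were inferred from the values and the column order.

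Positions were made 1-based. Genes came from RefSeq (GRCm38.p6; 20665 autosomal protein-coding records), and start sites from its promoter table (16457 of these records). Overlap meant at least 1 bp. Shares carry Wilson 95% intervals and medians order-statistic 95% intervals. No test was made, since loops of 1 list are not replicates. Counting was checked on simulated loops. Python 3.11.15, pandas 2.3.3, numpy 2.4.6 and scipy 1.17.1 were used.

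Named genes follow a rule: list members with an end at an anchor, the 12 loops of highest score with gene ends at both anchors, the 8 of highest score, the 5 shortest, the 3 with most genes inside, the 5 with most and the 5 with fewest genes near, and shared anchors. List members inside loops, genes of intragenic loops and the printed sequences were named outside it, after their values were seen. Of the 8 loops of highest score, 1 is not reported here. The members and lists were chosen with earlier results of these data known. Alternatives covered span limits of 80 and 120 kb, windows of 250 and 1000 kb, anchors widened by 5 kb, other gene records, start sites and stronger loops.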

Additional observations from a re-analysis of the deposited data

How the results depend on the processing

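No paired analysis was possible because every value belongs to the list as a whole, and for the same reason no replicate could be left out. Of 27 alternative values, 13 stayed within the interval of the reported value (for the number of loops, within 1.5 times) and 14 moved, most of them because the alternative counts something wider or narrower. The number of short loops was 80 at a limit of 80 kb, 329 at 120 kb and 62 among loops that scored above the median of their own pixel size. The share with a gene end at an anchor was 69.3% with anchors widened by 5 kb, 77.7% with any overlap with a gene record, 56.9% with all gene records and 18.2% with start sites, against 53.0%, 75.02%, 53.1% and 17.4% in longer loops. It was 57.1% at 10 kb pixels alone, against 42.2% in longer loops weighted by genes near, a weighting added after the data were seen, as was leaving out genes that touch the loop. The share with gene ends at both anchors was 22.3% with widened anchors and 27.2% with any overlap, against 14.1% and 27.9% in longer loops, so the order turned for any overlap. A whole gene inside was counted for 68.3% between outer edges, against 74.1% in longer loops, and any overlap gave 94.1%, against 93.9%, which turned the order. The median number of genes near was 9 within 250 kb and 28 within 1000 kb, against 4 and 15 in longer loops. Without predicted and receptor symbols it was 14, against 7. Depth per sample is unknown, and 42 loops of 10 kb pixels limit what can be said of them.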
